A study of Mus musculus with 13 samples.

Results

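Fndc3b lies in a stretch of 430 kb on mouse chromosome 3 (mm9, chr3:27250000-27680000) that held 52 of the 45096 Sox9 peaks listed for rib and nasal cartilage. Its members were all peaks whose centre fell in that stretch, 36 of the 27656 rib peaks and 16 of the 17440 nasal peaks. Of the 36 rib peaks, 35 belonged to the part of the rib list that the authors named Class II and 1 to the part named Class I. The stretch was chosen by its number of rib Class II peaks, so its density and its class make-up are given as a description and support nothing. The gene itself runs from about 27315000 to about 27610000 on the minus strand, so its 5′ end is at the higher coordinate and it is read towards lower ones. These bounds are approximate, and peaks were not assigned to exons, introns or untranslated regions, because an mm9 annotation was not used here.

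Both groups were untreated chondrocytes, the cells that make cartilage, freed by enzyme digestion from wild-type ICR mice. The rib cells were taken at p1, postnatal day 1, and the nasal septum cells at E17.5, embryonic day 17.5. Sox9 was precipitated from both with the same antibody, and there was 1 Sox9 library per tissue, so there is no replicate check, and tissue and stage cannot be told apart. The sources used here do not give how many animals were pooled, and values of the other libraries of the series, inputs and IgG included, were not analysed here. The lists hold positions without height or read number, so the depth behind a peak is unknown, and cell identity could not be checked against marker genes.

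Sox9 is a transcription factor of the HMG-box family that binds DNA as a dimer at many cartilage enhancers, and chondrocytes need it to form and to make their matrix. ChIP-seq locates such a factor by sequencing the DNA that is cross-linked to it, and a peak is a place where that DNA is enriched. Fndc3b, also known as Fad104, encodes a membrane-anchored protein with a row of fibronectin type III domains. It was first described in the differentiation of fat cells and was later studied in bone-forming cells. The series asks, by its title, whether Sox9 acts through distinct regulatory programmes in the chondrocyte. The sources used here do not say how the 2 classes of rib peaks were drawn.

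The promoter sequence of Fndc3b is shown because the single Class I peak of the locus lay at the approximate start of the gene. RefSeq gives 1 promoter of Fndc3b on GRCm38.p6, and the 250 bases before its start are printed 5′ to 3′ along the gene, from chr3:27710453-27710702, minus strand. Capitals mark each CG pair. The RefSeq extent of the gene reaches 855 bp beyond this start, so other transcripts begin further upstream.
Fndc3b promoter: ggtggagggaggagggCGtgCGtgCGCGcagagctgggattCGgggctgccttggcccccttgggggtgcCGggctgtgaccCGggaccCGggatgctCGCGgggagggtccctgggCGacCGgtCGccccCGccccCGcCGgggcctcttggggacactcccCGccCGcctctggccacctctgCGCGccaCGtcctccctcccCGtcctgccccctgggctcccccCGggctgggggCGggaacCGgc
The 250 bases had a GC content of 79.2%, against a median of 52.4% over the 32851 promoters of the table, and 1.56% of those had a GC content at least as high. They held 25 CG pairs, against a median of 6, and 10.7% of promoters held at least as many. The words AACAAT and ACAAAG, single-site matches to the SOX family, were searched on both strands and neither stood in this window. The 2 words have the letters ACAA in common, and 9.42% and 16.5% of all promoters of this length held them. The sequence is on another build than the peaks and no position was converted, so whether the peak covers these bases was not tested.

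The Class I peak covered 27610149 to 27610335, which is 149 to 335 bp on the upstream side of the approximate start. A nasal peak at 27610159 to 27610422 shared 177 bp with it, and the centres were 48.5 bp apart. The Class I peak stood at place 4707 of the 6794 Class I peaks and the nasal peak at place 7921 of the 17440 nasal peaks. A place is the row of a peak in its list, and the sources used here do not say by what the lists are ordered. No other Class I peak came near. The next ones were 528 kb away towards lower coordinates and 1094 kb away towards higher ones. The closest Class II peak lay 5.10 kb from it, inside the gene, and on the upstream side the closest was 47.8 kb away.

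Class II peaks lay at uneven gaps from 5.07 kb to 279 kb into the gene. Between 27373462 and 27469982 only the peak at 27418028 to 27418194 stood. The gene was divided into 3 parts of 98.3 kb. The first part held 16 Class II peaks, the middle part 9 and the last part 7, or 16.3, 9.15 and 7.12 per 100 kb. The 70 kb upstream held 3 and the 65 kb downstream of the gene held 0, so 32 of the 35 lay within the approximate gene. No Class I peak lay within it. Nasal peaks had the same order of density, with 8 in the first part, 4 in the middle, 3 in the last, 1 upstream and 0 downstream. In all, 97.2% of the rib peaks at the locus were Class II, against 75.4% of all rib peaks, a value that the choice of the region used.

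**Figure D1:**
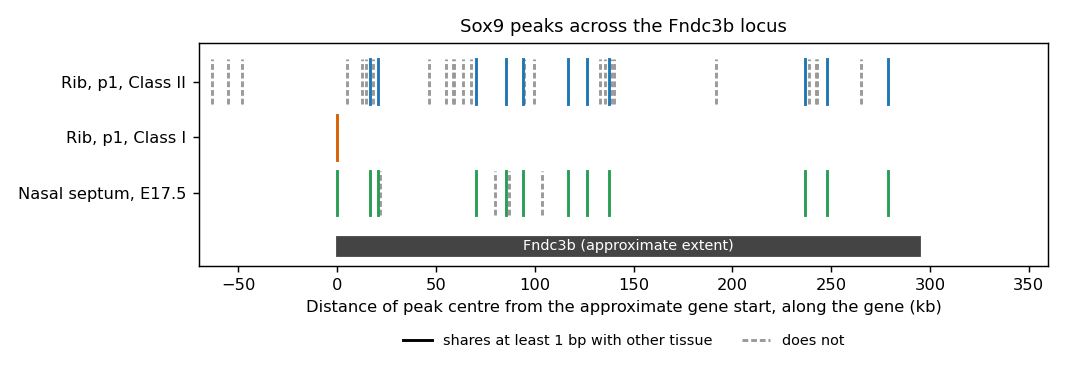
Sox9 peaks across the Fndc3b locus, with the distance of each peak centre from the approximate gene start in kb along the gene (upstream is negative). Coloured lines are peaks that share at least 1 bp with a peak of the other tissue, dashed grey lines those that do not, and the dark bar is the approximate gene. The 35 Class II peaks lie mostly inside the gene, at uneven gaps, and the 3 Class II peaks upstream have no nasal partner. The only Class I peak sits at the approximate gene start, where it overlaps a nasal peak.

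Gaps between neighbouring Class II peaks at the locus ran from 46 to 53101 bp. Another Class II peak stood within 10 kb, edge to edge, of 32 of the 35, or 91.4%, where the share over all Class II peaks was 49.6%. The median gap between neighbours was 4721.5 bp, against 27638.5 bp over the whole Class II list. Both values follow from the choice of a region dense in Class II peaks, and nothing is read from them. Peaks joined at gaps of up to 10 kb made chains of 5, 7, 4, 7 and 6 peaks inside the gene, listed from its far end to its start, beside 3 lone peaks. The chain of 5, at 27362021 to 27373462, spanned 11.4 kb near the 3′ end and had 2 peaks shared with nasal cartilage. The chain of 7 at 27469982 to 27493085 spanned 23.1 kb and had 3 shared peaks. The other chain of 7, at 27539709 to 27563385, was as long at 23.7 kb and had 1. Chains of at least 7 Class II peaks numbered 78 of 14394 in the whole list, lone peaks counted as chains. Nearest the start, the chain of 6 at 27588993 to 27605048 spanned 16.1 kb and had 2 shared peaks. The 3 upstream peaks belonged to a chain of 4 that ran past the edge of the region to 27681455, and none of that chain was shared.

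Nasal peaks met 11 of the 35 Class II peaks, or 31.4% (95% exact Clopper-Pearson interval 16.9% to 49.3%). Over all Class II peaks the share was 34.4%, so the locus held about the share of the list at large. Intervals here cover counting error only, and neighbouring peaks are not independent, so they are too narrow. All 11 shared peaks lay inside the gene, with 5 in its first part, 3 in the middle and 3 in the last. Their centres were a median of 33 bp from those of their nasal partners, with a range of 1.5 to 362.5 bp.

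The 2 Class II peaks that stood earliest in the list were both shared. The first, at 27472444 to 27472636, was 193 bp wide and stood at place 449 of 20862, and its nasal partner at 27472486 to 27472641 at place 977 of 17440. They shared 151 bp and lay 137 kb into the gene. The second, at 27539709 to 27539870 and 70.2 kb into the gene, stood at place 476, and the nasal peak that covered all of its 162 bp at place 2265. In both tissues these sites stood in the first 13.0% of the list. Place 1373, at 27492864 to 27493085, was also shared, with 174 bp in common with a nasal peak at place 6687. At other shared sites the places lay close together or far apart. At 27588993 to 27589198 the Class II peak stood at place 11929 and its nasal partner at place 10694. The Class II peak at 27373320 to 27373462 stood at place 2315 and lay whole within a nasal peak at place 15918. Another, at 27362021 to 27362189, stood at place 5716, and its nasal partner at place 17366. The reverse held at 27330930 to 27331039, where the Class II peak stood at place 14347 and the nasal peak that covered all of its 110 bp at place 5327. In percent of the list length, that was the only shared Class II peak of the locus whose nasal partner stood earlier. At the shared Class I site the nasal peak also stood earlier, at 45.4% of its list against 69.3% of the Class I list. Places 14345 and 14346 of the Class II list were also peaks of this locus, next to place 14347. Likewise, nasal places 15913 and 15915 stood near place 15918, so these late places may partly follow position. Places come from lists of unequal length and show no change between the tissues.

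The smallest overlap was at 27515938 to 27516246. This Class II peak had only 6 bp in common with a nasal peak at 27515516 to 27515943, which at 428 bp was the widest nasal peak of the locus. A further Class II peak, at 27515193 to 27515370, ended 145 bp short of that same nasal peak and counted as not shared. The widest Class II peak of the locus, 386 bp at 27593156 to 27593541, covered the whole of a nasal peak of 217 bp. Widths were otherwise ordinary, with a median of 176 bp for Class II at the locus against 181 bp in the list, and 205.5 bp for nasal peaks against 182 bp.

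The other 24 Class II peaks met no nasal peak. Their median place was 56.7% of the way down the Class II list, with a range of 19.5% to 99.7%, whereas the 11 shared peaks had a median of 27.4% and a range of 2.15% to 68.8%. The ranges overlapped. The whole list had the same contrast, with medians of 61.7% and 25%. Among the 8 locus peaks in the first 25% of the list 5 were shared, against 68.9% of all Class II peaks there. Beyond it 6 of 27 were shared, or 22.2%, against 22.9%. The 3 early peaks without a nasal partner lay near the 3′ end of the gene, at 27367495 to 27367685 (place 4058), 27345018 to 27345219 (place 4445) and 27371301 to 27371456 (place 5010). The closest nasal peaks to them were 5.29 kb, 13.9 kb and 1.81 kb away. Standardised to the same 10 bins of the list, other Class II peaks would give 11.6 shared peaks among 35, next to the 11 observed.

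**Figure D2:**
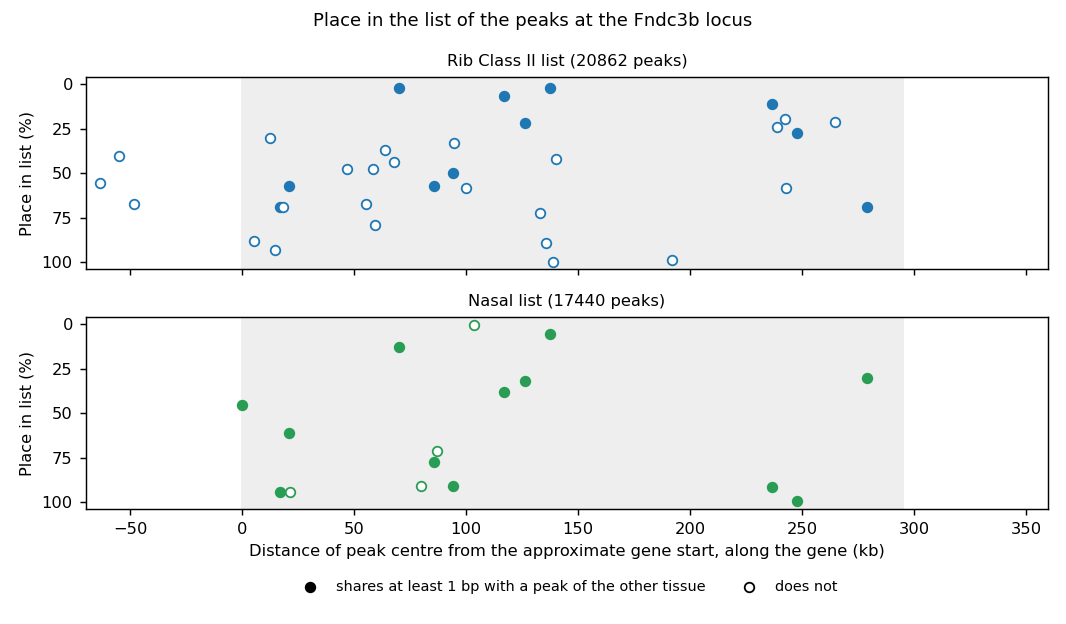
Place in the list, in percent of the list length (0 is the top), of each Class II peak (upper panel) and each nasal peak (lower panel) against the distance of its centre from the approximate gene start in kb. Filled points share at least 1 bp with a peak of the other tissue, open points do not, and grey marks the approximate gene. The earliest Class II peaks are filled, while the earliest nasal peak, 103 kb into the gene, is open.

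Rib peaks met 12 of the 16 nasal peaks, or 75% (47.6% to 92.7%), against 68.2% of all nasal peaks. The 12 partners were the 11 Class II peaks and the Class I peak. Nasal peaks of the locus had a median place of 66.3%, and 7 of the 16 stood in the last 25% (43.8%, 19.8% to 70.1%). That interval takes in 25%, and some of the 7 stood in adjacent or nearly adjacent rows. Of those 7, 5 were shared, or 71.4% (29.0% to 96.3%), and the interval takes in the 46.4% of the last 25% of the whole nasal list. Among the 5, 1 rests on the 6 bp given above, and the region was chosen for its many rib peaks.

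The nasal peak that stood earliest of all at the locus had no rib partner. It covered 27506437 to 27506573, 103 kb into the gene, was 137 bp wide and stood at place 129 of 17440. The closest rib peak, a Class II peak at place 12111, began 3.60 kb away. Among the first 1% of the nasal list, 8 of 174 peaks shared no base with a rib peak, and 3 of 174, or 1.72%, had none within 1 kb, this one among them. Of the other nasal peaks without a shared base, the one at 27530086 to 27530360 (place 15913) was 5.66 kb from a rib peak. The next, at 27523016 to 27523142 (place 12435), was 1.13 kb away. The last, at 27588485 to 27588651 (place 16444), was 0.341 kb from a shared Class II peak. Apart from the peak at place 129, these unshared nasal peaks stood at or beyond 71.3% of the list.

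The locus was set beside the regions most like it, the windows of 100 kb that held the most Class II peaks. These were 6, as Fndc3b shared its count, the fifth highest, with another window. The Fndc3b window, 27500001 to 27600000, held 16 Class II peaks, 5 of them shared (31.2%, 11.0% to 58.7%). The window with the same count, on chromosome 14 at 121500001, held 16, of which 7 were shared (43.8%, 19.8% to 70.1%). The window on chromosome 17 at 45900001 held 17, 6 of them shared (35.3%, 14.2% to 61.7%). The window on chromosome 7 at 124600001 held 18, with 7 shared (38.9%, 17.3% to 64.3%). On chromosome 6 at 37300001 there were 22, with 9 shared (40.9%, 20.7% to 63.6%). On chromosome 15 at 97800001 there were 27, with 12 shared (44.4%, 25.5% to 64.7%). All 6 intervals overlapped, and the differences were not tested. The median place of the Class II peaks was 53.5% in the Fndc3b window and 37.7% to 60.6% in the other 5. In the first 5% of the list stood 1 peak of the Fndc3b window, 1 each of those on chromosomes 6, 14 and 17, and 5 each of those on chromosomes 7 and 15. Class I peaks numbered 0 in the Fndc3b window and in those on chromosomes 7, 14 and 17. The windows on chromosomes 6 and 15 held 2 and 10.

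**Figure D3:**
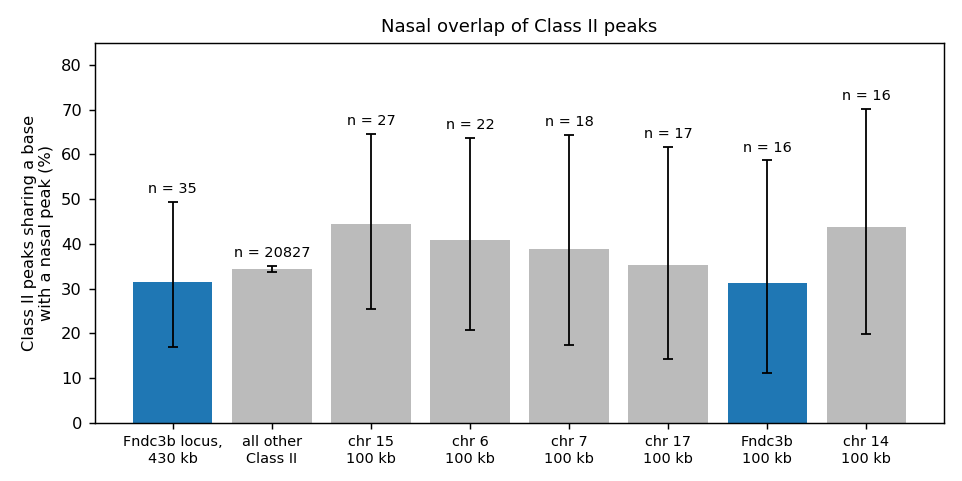
Share of Class II peaks, in percent, that have at least 1 bp in common with a nasal peak. Bars are the Fndc3b locus, all other Class II peaks and the 6 windows of 100 kb with the most Class II peaks, of which Fndc3b and chromosome 14 are tied in last position (Fndc3b in blue), error bars are 95% exact binomial intervals, and n is the number of Class II peaks. The Fndc3b bars, at 31.4% and 31.2%, stand near the 34.4% of all other Class II peaks and their intervals overlap those of the other windows.

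Over windows of its own length, Fndc3b stood at the upper end for Class II peaks. The genome was divided into windows of 430 kb in step with the locus, of which 4233 held a peak of either tissue. The median window held 3 Class II and 3 nasal peaks. The locus, with 35 Class II peaks, was exceeded by 1 window, which held 39, and with 16 nasal peaks it was 1 of 101 windows with at least that many. The count depends on where windows begin. When windows could start at any Class II peak, 9 separate places held at least 35, and the best window at Fndc3b, from 27362021 to 27787994, held 38.

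**Figure D4:**
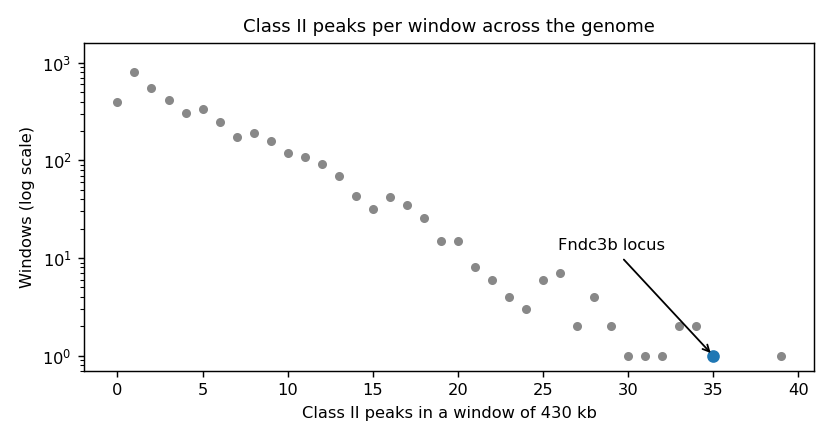
Number of windows of 430 kb (log scale) by the number of Class II peaks they hold, over the 4233 windows with any peak, grey points. The blue point is the Fndc3b locus, with 35 Class II peaks, far to the right of the median of 3.

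At its edges the region was bounded by long stretches without peaks on the 3′ side, while a Class II chain ran past the edge on the 5′ side. Towards lower coordinates the first peaks inside stood 81.0 kb from the edge, and the first outside, a Class II peak at 27210018 and a nasal peak at 27210032, lay 39.9 kb beyond it. Towards higher coordinates the last Class II peak inside stood 6.47 kb from the edge and the next, at 27681308, lay 1.38 kb beyond it. Nasal peaks had a long gap there, with the last inside 69.7 kb from the edge and the next 82.5 kb beyond it. By order in RefSeq the protein-coding neighbours of Fndc3b are Ghsr, the ghrelin receptor gene, beyond its 3′ end and Tmem212 on the 5′ side, and their own peaks were not placed here.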

How the data were processed

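Sox9 ChIP-seq peaks of 2 libraries, 1 of rib and 1 of nasal septum chondrocytes, were analysed out of 13 in the series. The 4 lists, as the authors deposited them, give the chromosome, start and end of each peak on mm9, per the submitters' processing notes, and no score or count stands beside a peak. For the aligner, peak caller, control and class definition, the sources used here give nothing. Starts are printed with 1 added. Peaks counted as shared at 1 bp or more, and shares carry 95% exact binomial intervals. Chains joined peaks at gaps of up to 10 kb. No p-value was computed, since each list comes from 1 library. The region, its bounds and the promoter words were chosen with earlier results of these data known. Peaks named singly were the earliest and the widest of the Class II and nasal lists at the locus, nasal peaks without a rib peak within 1 kb, and the Class I peak, and the others were chosen after their values were seen. Motifs under the peaks and peaks of other FNDC genes need an mm9 genome and were not analysed here. Places late in the lists partly follow position. The median distance to the next entry of the same chromosome was 35.2 Mb in the first of 10 bins of the rib list and 6.29 to 10.7 Mb in bins 7 to 10, and in the nasal list 34.8 Mb and 5.55 to 18.8 Mb, so close late places were not read as an order. Overlaps of 1 bp and chains were tested on simulated data. The number of Class II peaks that a nasal peak overlaps was also checked against bedtools 2.31.1. The other overlap settings were not checked in these ways. Tables were handled in pandas 2.3.3 and numpy 2.4.6, intervals came from scipy 1.17.1 and plots from matplotlib 3.10.9, all under Python 3.11.15.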

Additional observations from a re-analysis of the deposited data

How the results depend on the processing

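The difference in nasal overlap between the Class II peaks at Fndc3b and all other Class II peaks, -2.95 percentage points, had no stable sign. It was 4.38 with overlaps of 50% or more of both peaks and 0.0063 in the gene body alone, and the cause was not tested. Under the other settings it ran from -11.3 in the first 50% of each list to -1.84 against Class II peaks in the same bins of the list, a setting chosen after seeing the data. The share itself ran from 22.2% to 34.4% and that of nasal peaks from 57.1% to 81.2%, within the intervals of the main values. By construction, the first 50% of each list left fewer peaks, 18 Class II and 7 nasal. The gene body alone gave a Class II share of 100%, as the Class I peak began 149 bp outside its approximate start. On which side of the true start that peak lies was not tested. A chain distance of 25 kb joined 18 Class II peaks into the longest chain, against 7 at 10 kb and 6 at 5 kb. With 35 and 16 peaks the intervals were wide, and whether differences of the size seen here could be detected was not tested. No read depth was given to weigh single peaks.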

Other observations

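The 9 separate places of 430 kb with at least 35 Class II peaks, found after the data were seen, had from 34.2% to 61.7% of those peaks shared with nasal cartilage. At Fndc3b the best window had 38 Class II peaks, of which 13 were shared, or 34.2% (95% exact interval 19.6% to 51.4%). A place on chromosome 14, from 76953212 to 77379779, had the same 38 and 13 and no Class I peak. These were the lowest shares of the 9. The highest were 61.7% (46.4% to 75.5%) on chromosome 8, 60.0% (44.3% to 74.3%) on chromosome 15 and 57.5% (40.9% to 73.0%) on chromosome 10, whose intervals overlap that of Fndc3b. The differences were not tested.

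On the upstream side, the chain of 4 Class II peaks from 27658150 to 27681455 had no nasal peak within its 23.3 kb, and the closest nasal peak to its first member was 47.7 kb away, at the start of Fndc3b. Whether that chain belongs with Fndc3b or with another gene was not tested.

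The nasal peak at place 129, inside Fndc3b and 3.60 kb from any rib peak, is 1 of 3 in the first 1% of the nasal list without a rib peak within 1 kb. As rib and nasal tissue, stage and library differ together, these cannot be told apart as the source of its absence from the rib list.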
